A study of Mus musculus with 7 samples.

Results

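The Wnt5a locus was defined by position, as all peaks of Shox2 in the limb, Shox2 in the palate and Pbx in the limb whose midpoint lay on chromosome 14 between 28.8 and 30.0 Mb of the mouse build mm9. It held 52 of 33915 limb Shox2 peaks, 42 of 15091 palate Shox2 peaks and 25 of 33915 limb Pbx peaks, or 119 of 82921 peaks in all. The limb Shox2 and Pbx lists are of the same length, and the cutoffs behind the lists are not known. The deposited list of regions shared by Shox2 and Pbx, called co-occupied here, had 13 of its 8999 regions here, all of them among the 52 limb Shox2 peaks. The window was chosen with the positions of these peaks known, so the numbers of peaks in it are given as a description. Wnt5a itself was placed near 29.32 to 29.34 Mb, as the definition of the window gives it. That interval is known to about 10 kb only, and "below" and "above" stand for lower and higher coordinates, not for the direction of transcription.

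The series mapped protein binding in freshly dissected tissue of mouse embryos by chromatin immunoprecipitation and sequencing (ChIP-seq), with 1 library per group. Embryos labelled Shox2-HA, whose Shox2 protein is detected through an HA epitope tag, gave the limb and the palate library at E12.5 (embryonic days) with an anti-HA antibody. Embryonic limb at E12.5 gave the Pbx library, with an antibody against Pbx proteins and no genotype given. The other 4 of the 7 libraries, which include the input and the anti-HA ChIP from embryos without the tag, were not analysed here. Whether embryos were pooled is not stated.

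Wnt5a encodes a secreted Wnt ligand that signals mainly outside the β-catenin pathway, through the receptor Ror2 and Frizzled receptors, and orients cell polarity and movement. It is needed for outgrowth of the limb bud and for elongation and closure of the palate, and embryos without it have short limbs and cleft palate. Shox2, a transcription factor with a homeodomain, is required in the proximal limb skeleton and in the anterior palate. Pbx proteins are TALE-class homeodomain factors and often act as DNA-binding partners of other homeodomain proteins. In the gene order of RefSeq on GRCm38.p6, the protein-coding neighbours of Wnt5a are Erc2, which encodes a presynaptic scaffold protein, on the lower side and Cacna2d3, which encodes an auxiliary subunit of calcium channels, followed by Lrtm1 on the upper side. Long non-coding genes lie closer on both sides, Gm52097 below and Gm35164 above. No peak was assigned to these genes, since no annotation of mm9 was used.

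**Figure D1:**
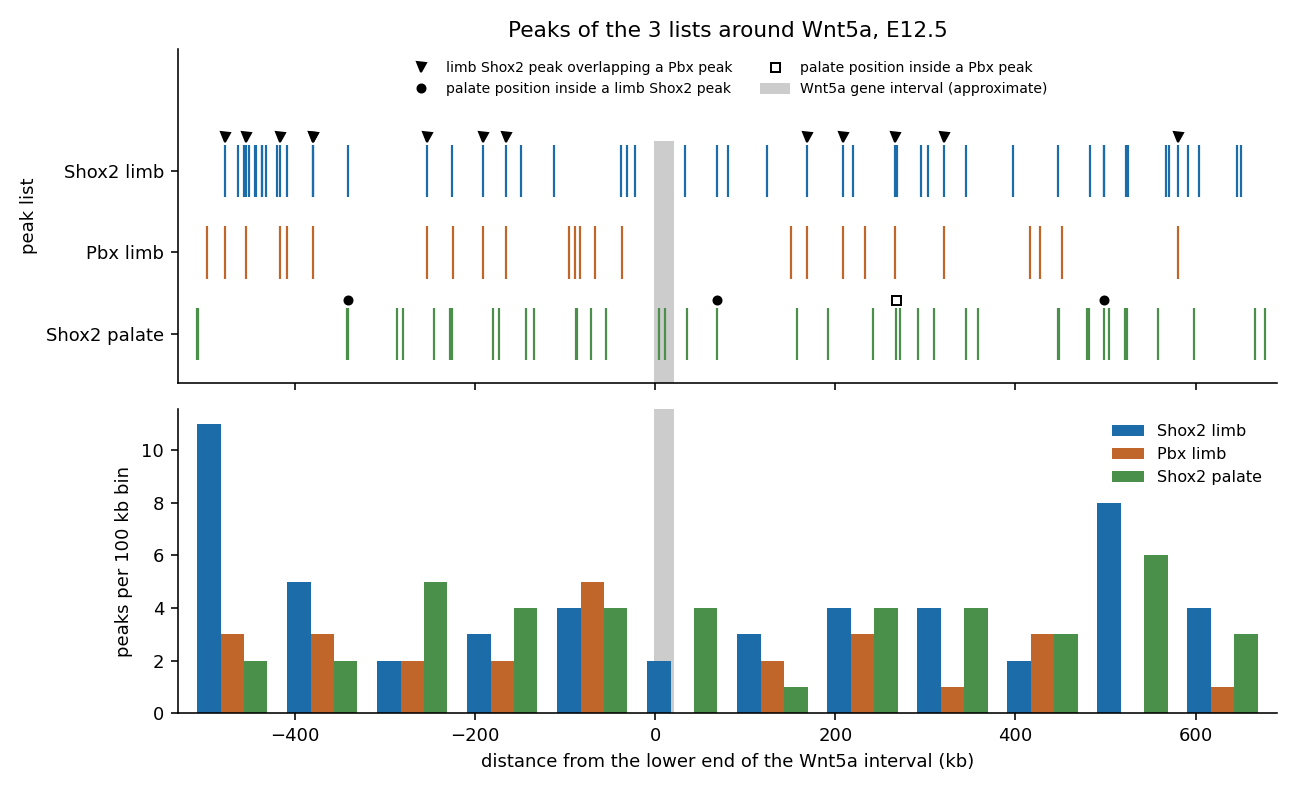
Peaks of the 3 lists by distance (kb) from the lower end of the Wnt5a interval, as ticks (top) and as counts per 100 kb bin (bottom); the grey band is the approximate gene interval. The 2 palate positions in the band are the only peaks there, and the nearest co-occupied sites lie 166 kb below and 148 kb above it. Only 6 limb Shox2 peaks lie within 100 kb of the band, and 26.5% of the whole limb list overlaps Pbx.

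The palate list was crowded around Wnt5a. When each chromosome was divided into windows of 1.2 Mb from its first base, the Wnt5a window held the most palate Shox2 peaks of all 2122 windows with any peak: 42, against a median of 6 and 37 in the next fullest. With windows of the same size started every 100 kb, an analysis added after the data were seen, the fullest palate window of the genome ran from 28.7 to 29.9 Mb of chromosome 14 and held 44. In that series 11 of 22313 windows with a palate peak held at least 42, and 5 of the 11 did not overlap the locus. The median distance between neighbouring palate peaks was 18.6 kb in the locus and 62.9 kb in the whole list.

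Limb Shox2 peaks were also frequent, but less extreme. The 52 peaks compare with a median of 13 per window, and the locus ranked 46th from the top of the 2122 windows. Pbx peaks were less crowded still, with 25 against a median of 12 and 421st place, and 21.8% of windows held at least as many. Neighbouring Pbx peaks were a median of 29.2 kb apart in the locus and 27.9 kb in the whole list. For limb Shox2 the medians were 13.9 and 27.1 kb. The whole-list medians count every gap, so crowded stretches weigh more in them. They do not give the spacing of a typical window. The 13 co-occupied sites, against a median of 3, put the locus at place 108.

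**Figure D2:**
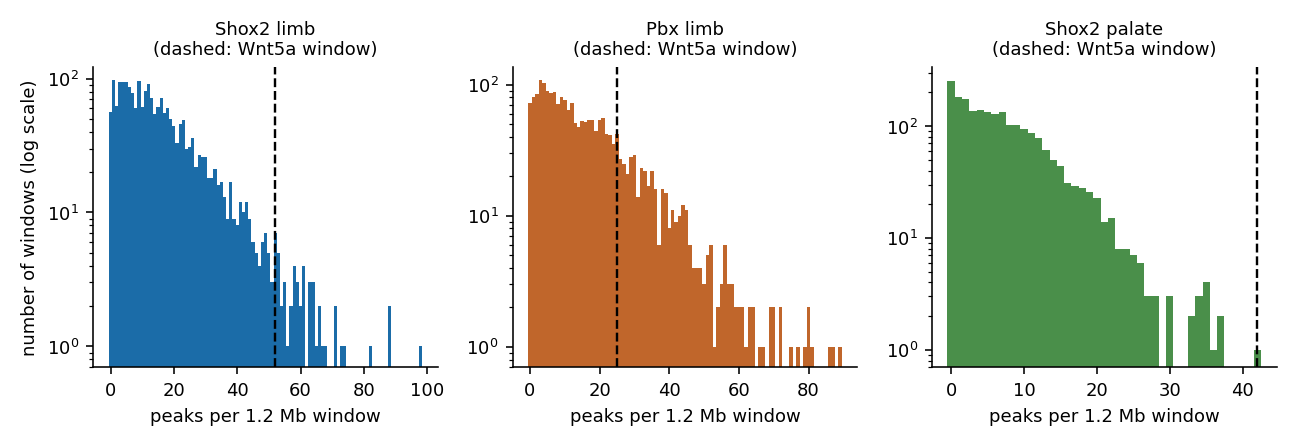
Number of 1.2 Mb windows (log scale) by the peaks they hold, for each list; dashed lines mark the Wnt5a window at 52 limb Shox2, 25 Pbx and 42 palate Shox2 peaks. The line stands at the far right of the palate distribution and within the body of the Pbx distribution.

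The windows of the same size on either side held fewer Shox2 peaks. The window below, from 27.6 to 28.8 Mb, held 16 palate, 18 limb Shox2 and 25 Pbx peaks. The window above, from 30.0 to 31.2 Mb, held 21 palate, 16 limb Shox2 and 22 Pbx peaks. Shox2 peaks of both tissues were thus more numerous in the locus than on either side, while the 25 Pbx peaks of the locus were as many as below it.

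The first comparison of the design sets Shox2 sites of the palate against those of the limb. The locus held 0.278% of the palate list and 0.153% of the limb list, a 1.82-fold larger share in the palate (two-sided Fisher's exact test, p = 0.00492, Benjamini-Hochberg adjusted p = 0.0306 over 1944 windows with at least 5 Shox2 peaks). This was a common result: 19.0% of those windows passed the threshold of 0.05, 11.7% toward the palate and 7.30% toward the limb, and the locus ranked 313th of the 1944 windows by p. The window above leaned further to the palate, 2.95-fold (exact test, adjusted p = 0.0102), and the window below 2.0-fold without passing (exact test, adjusted p = 0.176). The call was lost when the limb list was cut to its first 15091 peaks, the length of the palate list, with 20 limb peaks left and a ratio of 2.10 (exact test, adjusted p = 0.0603), and in each of the 600 kb windows that make up the locus. Because the window was chosen with its peaks known, the p-values of the locus are descriptions and not a test. The exact test also counts each peak as independent, although peaks cluster, which makes its p-values too low. With 1 library per tissue, a difference between libraries and one between tissues cannot be told apart.

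Within the locus the lists were unevenly spread. The 100 kb bin of the locus with most limb Shox2 peaks, from 28.8 to 28.9 Mb, held 11 of them, 2 palate peaks and 3 Pbx peaks. Of the 19668 such bins with any peak in the genome, 0.458% held at least 11 limb Shox2 peaks. For the fullest bins of the other lists these shares were 0.605% (6 palate peaks) and 8.59% (5 Pbx peaks). Each bin was picked as the fullest of the locus, so the shares are descriptions. The next fullest bin of the limb list, from 29.8 to 29.9 Mb, held 8 limb and 6 palate Shox2 peaks, and 28.9 to 29.0 Mb held 5 and 2.

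The crowded limb stretch at the lower edge coincided with the longest gap in the palate peaks. No palate position lay between 28811745 and 28977894, a gap of 166 kb, and 15 limb Shox2 peaks, 6 Pbx peaks and 5 co-occupied sites fell inside it. A gap of at least this length was common in the palate list as a whole, where 25.4% of gaps reached it. Conversely, the longest gap of the limb list in the locus ran for 86.9 kb from 28978640 to 29065538 and held 2 palate positions. That limb gap too was ordinary, with 22.2% of gaps of the limb list at least as long.

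At the gene itself the palate list alone had peaks. Palate positions 29324282 and 29330946 lay inside the gene interval, at 77.9% and 62.7% of the way down the palate list. The order of the files may be a ranking, which is not stated, and both then stood in its lower part. A further palate position, 29355340, lay 15.3 kb above the interval, at 94.8% of the list. No limb Shox2 peak and no Pbx peak lay in the interval, which does not show that the site was unbound in the limb.

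The limb Shox2 peaks nearest to the gene flanked it on both sides. The closest was chr14:29352868-29353092, 12.9 kb above the interval, followed by chr14:29297377-29297570, 22.4 kb below, and chr14:29288366-29288659, 31.3 kb below. Their widths were 225, 194 and 294 bp, against a median of 261 bp over the limb list, and they stood at 53.7%, 76.7% and 51.5% of that list. None of them overlapped a Pbx peak or held a palate position, which also held for 69.5% of the whole limb list.

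Pbx peaks left the longest empty stretch of the locus around the gene. Between 29283643 and 29470045, a gap of 186 kb that contains the whole gene interval, the Pbx list had no peak, while 6 limb and 4 palate Shox2 peaks fell there. The gap reached 36.4 kb below and 130.04 kb above the interval. Of the 33887 gaps in the Pbx list 8.84% were at least this long, and their median was 26.8 kb.

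Just below that gap, 5 Pbx peaks stood within 100 kb of the gene, from chr14:29223742-29224558 to chr14:29282609-29283643. None of the 5 overlapped a Shox2 peak of either tissue. Most Pbx peaks of the whole list, 73.0%, did not either. The last of the 5 had its centre 1.67 kb from that of the nearest limb Shox2 peak, chr14:29281163-29281740. The centres of the other 4 lay 16.5 to 28.8 kb from the nearest limb Shox2 peak. Palate positions were closer to these 4, at 1.60 to 7.82 kb, and 18.0 kb from the last of the 5. Above the gene no Pbx peak came within 100 kb.

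The second comparison asks which limb sites Shox2 shares with Pbx. Of the 52 limb Shox2 peaks in the locus 13 overlapped a Pbx peak by at least 1 bp, a share of 25% (exact binomial 95% interval 14.03 to 38.9%), beside 26.5% in the whole limb list. The share was thus close to the background at the deposited extents. With both lists cut to their first 50%, it was 4 of 25 in the locus, 16%, against 24.4% over the genome. Among the 647 windows with at least 20 limb Shox2 peaks the median share was 25.6%. All intervals given for shares treat peaks as independent and cover counting error only.

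Counted from the Pbx side the share was larger. Of the 25 Pbx peaks 12 overlapped a limb Shox2 peak, 48.0% (exact binomial interval 27.8 to 68.7%), beside 23.4% of the whole Pbx list. Among 690 windows with at least 20 Pbx peaks, the median was 17.6% and 7.83% of windows had a share as high. The locus also had 4 times the median number of limb Shox2 peaks, 52 against 13, and the part of that density in the share was not tested. The remaining 13 Pbx peaks, or 52.0%, met no Shox2 peak of either tissue, against 73.0% of the whole list.

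**Figure D3:**
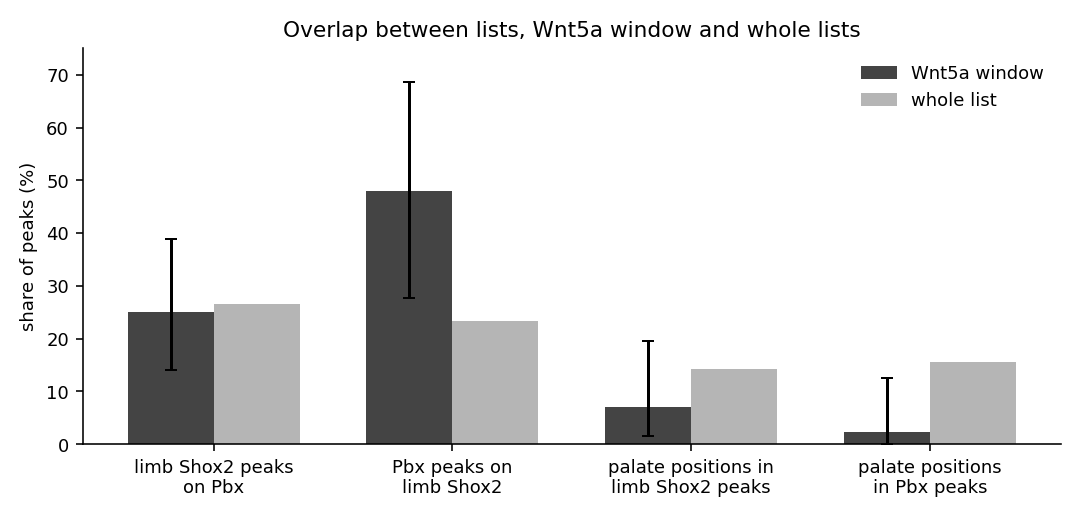
Share of peaks (%) that overlap another list, in the Wnt5a window (dark bars, with exact binomial 95% intervals) and in the whole lists (light bars). The share of limb Shox2 peaks on Pbx is close to that of the whole list, 25 and 26.5%, while that of palate positions in Pbx peaks is 2.38 against 15.6%. Counted from the Pbx side, which is not drawn, 4% of Pbx peaks in the window hold a palate position, against 6.62%.

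The 13 co-occupied sites fell into 8 below and 5 above the gene, and none lay within 100 kb of it. Only 6 limb Shox2 peaks and 5 Pbx peaks lay within that distance. In the whole limb list 26.5% of Shox2 peaks overlapped Pbx, so few such sites could be looked for among 6. The nearest co-occupied sites were chr14:29154245-29154488, 166 kb below, and chr14:29488148-29488576, 148 kb above. Their Shox2 peaks of 244 and 429 bp lay within, and across the edge of, Pbx peaks of 1321 and 1294 bp. Their centres lay 24.5 and 445.5 bp from those of the Pbx peaks.

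Below the gene, 5 co-occupied sites lay in the crowded stretch at the lower edge. These were chr14:28842269-28842465, chr14:28864572-28865625, chr14:28903235-28903519, chr14:28939475-28939785 and chr14:28939971-28940294. The second is the widest limb Shox2 peak of the locus, at 1054 bp, and it lay wholly inside a Pbx peak of 1554 bp. It stood at 74.5% of the limb Shox2 list, while its Pbx peak stood at 8.46% of the Pbx list.

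The last pair of these sites shared 1 Pbx peak, chr14:28939587-28940677, so that 13 sites correspond to 12 Pbx peaks. That Pbx peak stood on line 459 of its list, the highest place of any Pbx peak in the locus. The higher Shox2 peak was centred 0.5 bp from it, and the lower, 185 bp away from edge to edge, was centred 502 bp from it and crossed its border. In the limb list the higher Shox2 peak stood at 78.3% and the lower at 60.1%.

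Between that stretch and the gene lay 3 more co-occupied sites. At chr14:29065538-29066076, 254 kb below the gene, a Shox2 peak of 539 bp on line 2154 had the highest place of any co-occupied Shox2 peak here, 6.35% of the list, whereas its Pbx peak stood at 80.8%. At chr14:29128231-29128437, 192 kb below, 72.9% of a Shox2 peak of 207 bp was covered by the narrowest Pbx peak among the 12, of 699 bp. The site 166 kb below, given above, had its Pbx peak at 8.64% of the Pbx list and its Shox2 peak at 56.9%.

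Above the gene, the 5 co-occupied peaks stood at 10.4 to 67.4% of the Shox2 list. The site chr14:29527926-29528441, 188 kb above, stood at 10.4% of the Shox2 list and lay in the widest Pbx peak of the locus, chr14:29527538-29529124, of 1587 bp, at 11.1% of the Pbx list. It was the only co-occupied site here in the first 20% of both lists. Those at chr14:29586340-29586686 and chr14:29640152-29640861 stood at 25.9% and 13.9% of the Shox2 list, and the site 148 kb above at 28.7%. The last, chr14:29899795-29900180, 560 kb above, stood at 67.4%.

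Over all 13 sites the centres of the Shox2 and the Pbx peak were a median of 147.5 bp apart, with a range from 0.5 to 502 bp, beside a median of 142 bp over the 8999 sites of the genome. In 10 of the 13 the Shox2 peak lay wholly inside the Pbx peak, 76.9% against 87.5% in the whole list. Every one of the 13 had its Shox2 centre inside the Pbx peak. With every peak set to 200 bp around its centre, 7 of the 52 limb peaks still overlapped Pbx, 13.46% against 16.4% in the whole list.

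**Figure D4:**
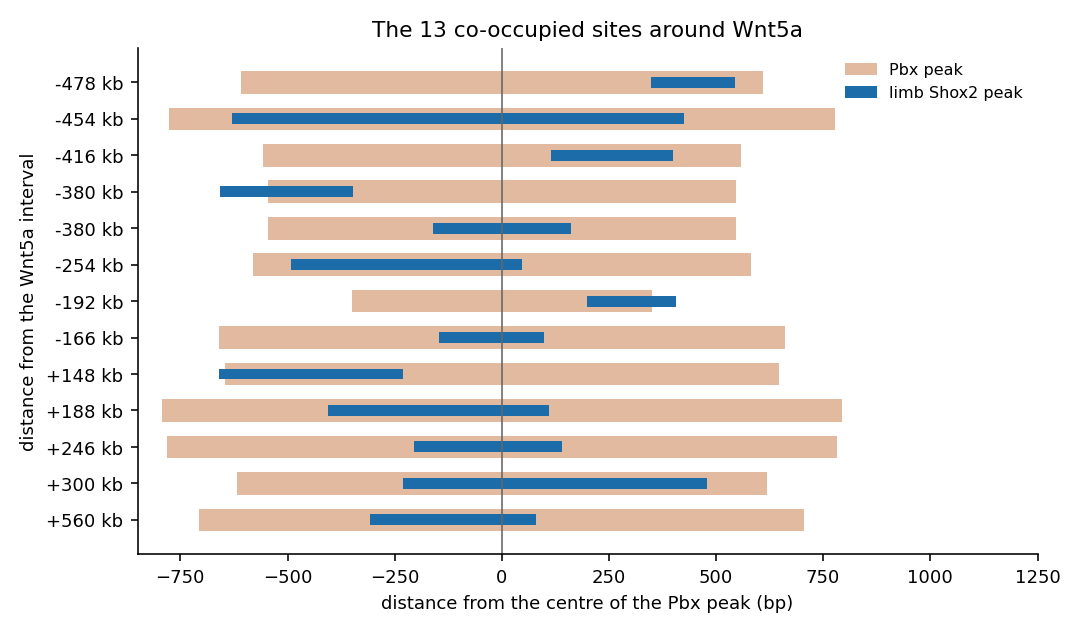
Extents of the limb Shox2 peak (dark) and the Pbx peak (light) at the 13 co-occupied sites, in bp from the centre of the Pbx peak; rows are ordered by distance from the Wnt5a interval. In 10 rows the Shox2 peak lies within the Pbx peak, and the rows both marked -380 kb share 1 Pbx peak.

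Over the genome the co-occupied limb Shox2 peaks stood at a median of 33.6% of the list. The 13 around Wnt5a had a median place of 56.9%, and the 39 other limb Shox2 peaks of the locus 50.5%, beside 55.0% for all limb peaks off Pbx. The Pbx peaks of the co-occupied sites stood close to their background, at a median of 31.3% of the Pbx list against 33.0% over the genome. Median widths of the co-occupied Shox2 peaks were 347 bp in the locus and 326 bp over the genome. Members of all 3 lists were spread over the whole length of their files. Limb Shox2 peaks numbered 14, 11, 14 and 13 in successive 25% parts of their list, Pbx peaks 7, 5, 7 and 6, and palate peaks 8, 13, 10 and 11. Limb Shox2 peaks of the locus were somewhat wider than the list, with medians of 314.5 and 261 bp, as were Pbx peaks, with 1114 and 897 bp.

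**Figure D5:**
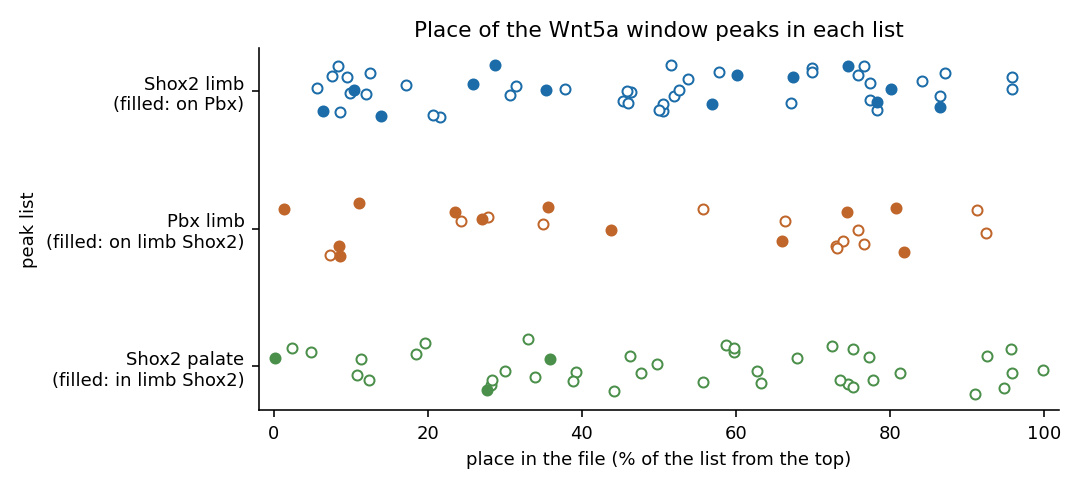
Place of each peak of the Wnt5a window in its file, in percent of the list from the top; filled points are peaks that meet the list named at the left, and vertical scatter within a list carries no value. The peaks of each list are spread from near the top to near the bottom.

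The limb Shox2 peak that stood first in its list, chr14:28883190-28883452, on line 1898 (5.60%), lay 437 kb below the gene, off Pbx and off the palate list. It belonged to a close pair with chr14:28882645-28883104, 85 bp away from edge to edge. There were 4 such pairs of limb Shox2 peaks with centres within 1 kb, and 2 such pairs of palate positions. Thus neither the 52 limb peaks nor the 42 palate positions are all separate places. The last limb Shox2 peak in its list was chr14:29665139-29665386, at 95.8%. The last Pbx peak, chr14:29736104-29736994, stood at 92.5%.

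Palate and limb Shox2 sites coincided at 3 places. Of the 42 palate positions 3 lay inside a limb Shox2 peak, 7.14% (exact binomial interval 1.498 to 19.5%), beside 14.2% of the whole palate list. The whole-list value lies within the interval. Palate positions are deposited as single bases, so each was either inside a limb peak or not.

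The first of them in file order was palate position 28978346, on line 17 of 15091, ahead of all other palate peaks of the locus. It lay in the limb Shox2 peak chr14:28978222-28978640, of 419 bp at 12.0% of the limb list, 85 bp from its centre and 342 kb below the gene. A further palate position, 28977894, lay 328 bp outside the same limb peak. Palate position 29388393 lay in chr14:29388153-29388401, 48.4 kb above the gene and 116 bp from the centre of that peak. Palate position 29818703 lay in chr14:29818548-29819053, 479 kb above the gene. These palate positions stood at 35.8% and 27.6% of the palate list, and the limb peaks at 37.8% and 31.4% of theirs.

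None of these 3 limb peaks overlapped Pbx. Thus 0 of 52 limb Shox2 peaks met both other lists, which allows up to 6.85% by the exact binomial interval, beside 2.30% in the whole list. From the Pbx side, 1 Pbx peak held both a limb Shox2 peak and, outside that peak, a palate position.

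More palate positions lay beside limb Shox2 peaks than inside them. Within 1 kb of a limb Shox2 peak there were 12 of 42, or 28.6%, beside 21.6% in the whole palate list, so that the order of locus and list differed from that for positions inside peaks. The closest outside were position 29093984, 98 bp from chr14:29094082-29094293, and position 29665558, 172 bp from chr14:29665139-29665386. The latter palate peak stood at 10.8% of its list, while the limb peak beside it was the lowest of the locus in its own. Palate positions 29766854 and 29768477 stood on either side of the limb peak chr14:29767264-29767796, 410 and 681 bp from its edges. The median distance from a palate position to the nearest limb Shox2 centre was 6.94 kb, against 18.4 kb in the whole list. Both lists were denser here than in most windows, and the part of density in these distances was not tested.

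The third comparison sets palate Shox2 sites against limb Pbx sites. Only position 29586940 of the 42 lay in a Pbx peak, 2.38% (exact binomial interval 0.0603 to 12.6%), beside 15.6% of the whole palate list. The interval lies below the whole-list value, but it takes peaks as independent and covers counting error only. The window was chosen with its peaks known, so this is a description and not a test. Of the 103 windows with at least 20 palate peaks 3.88% had a share this low or lower, and their median was 20%. Allowing 1 kb around each Pbx peak gave 2 of 42, 4.76% against 18.9% in the whole list. Counted from the Pbx side the difference was smaller. There 1 of 25 Pbx peaks held a palate position, 4% (exact binomial interval 0.101 to 20.4%), beside 6.62% of the whole Pbx list. That whole-list value lies within the interval. Pbx was profiled in the limb and not in the palate, so this compares sites of different tissues.

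The palate position concerned stood on line 15075 of 15091, the last of the locus. The Pbx peak that held it, chr14:29585764-29587327, is also that of the co-occupied site 246 kb above the gene. The palate position lay 254 bp outside the limb Shox2 peak there. Palate positions of the locus were a median of 21.4 kb from the nearest Pbx centre, against 14.6 kb in the whole list. The locus held more Pbx peaks than most windows. Their median spacing was 29.2 kb, against 27.9 kb in the whole list, where crowded stretches weigh more. Of the palate positions, 4 lay in the 186 kb gap of the Pbx list. The part of this layout in the distance was not tested.

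In all, 36 of the 52 limb Shox2 peaks (69.2%) met neither other list, beside 69.5% of the whole list. Of the palate positions 38 of 42 (90.5%) met neither limb list, beside 75.3%. At the lower edge the nearest limb Shox2 peak left out had its midpoint 1.62 kb outside, and the first inside lay 42.4 kb within. For the palate these distances were 1.77 and 10.4 kb, and for Pbx 24.3 and 21.9 kb. At the upper edge the nearest peak outside lay 87.6 kb away for limb Shox2, 18.1 kb for palate Shox2 and 51.9 kb for Pbx, and the nearest inside 29.5, 3.01 and 99.9 kb.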

How the data were processed

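The authors' deposited peak lists hold a chromosome, a start and an end per peak, with no header, height or p-value, so depth is unknown and no value carries a read-based error. Bowtie, MACS2 and build mm9 are named per the submitters' processing notes; versions, settings and cutoffs were not given in the sources used here. Starts were written counting from 1. Of 7 libraries 3 were used. Peaks belonged to the locus by midpoint, and 1 shared base pair counted as overlap. Limb and palate peaks were counted in 1.2 Mb windows. Two-sided Fisher's exact tests were run over all windows with at least 5 Shox2 peaks, with Benjamini-Hochberg adjustment and a threshold of 0.05. This code was tested on simulated data with peaks drawn independently, which cannot show how it behaves where peaks cluster. Peaks were named by rule: all overlaps between lists, the 3 nearest to the gene, the first, last and widest of each list, and the fullest 100 kb bins. Further peaks, such as close pairs and near misses, were chosen after their values were seen. The members, rules and lists were chosen with earlier results of these data known. A planned count of peaks near genes of the Wnt5a pathway was not run, since no mm9 annotation was used. Python 3.11.15, NumPy 2.4.6, SciPy 1.17.1, pandas 2.3.3, statsmodels 0.14.6 and matplotlib 3.10.9 were used.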

Additional observations from a re-analysis of the deposited data

How the results depend on the processing

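Counting peaks by any overlap with the window left 52 limb Shox2, 42 palate and 25 Pbx peaks, and the last 1 Mb of the window held 36, 38 and 19. By construction, fewer were left within 200 kb of the gene interval, with 14, 14 and 10, and in the first 50% of each list, with 25, 21 and 12. The share of limb Shox2 peaks on Pbx, 25%, was 13.46% with peaks set to 200 bp, where the whole list also fell, to 16.4%, and ranged from 16% (first 50% of each list, 24.4% over the genome) to 28.6% under the other 4 alternatives. The share of palate positions in limb Shox2 peaks, 7.14%, was 11.9% within 200 bp and 28.6% within 1 kb, which wider limits must raise; that in Pbx peaks was at most 4.76%. The palate excess over limb, 1.82-fold, kept its direction and lost its call in the 600 kb windows, at 1.75-fold below (27 limb and 21 palate peaks, with p = 0.259 by the exact test after adjustment) and 1.89-fold above (25 and 21; adjusted p = 0.182), and with the limb list cut, at 2.10-fold (adjusted p = 0.0603); each leaves fewer peaks per test. It was called with at least 10 peaks per window (exact test, adjusted p = 0.0283). As the window was chosen with its peaks known, these p-values and calls are descriptions too. Starting windows every 100 kb, chosen after seeing the data, changed the share of windows at least as full from 0.0471 to 0.0493% for the palate, from 2.45 to 2.51% for limb Shox2, from 21.8 to 22.7% for Pbx and from 6.46 to 7.94% for co-occupied sites. The denominators differ as well. The first value of each pair is over the 2122 windows with any peak, the second over windows with a peak of that list. These changes therefore do not measure the window starts alone. No paired analysis was possible because there was 1 library in each group; none could therefore be left out. With unknown depth and cutoffs, absence from a list does not show that a site was unbound.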
